A study of Mus musculus with 43 samples.

Results

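Isolated highly methylated CCCGGG sites were analyzed in mouse colon. A site was counted as isolated when it lay on chromosomes 1 to 19 and no other listed site lay within 1000 bp on the same chromosome, and as highly methylated when its mean methylation was over 80% in the non-dysplastic epithelium of mice fed 2 mg folic acid (FA). That mean was taken over libraries with 20 or more reads at the site and needed at least 4 of the 7 libraries. The rule found 344 sites among the 173449 listed. On chromosomes 1 to 19, 164896 sites were listed and 105429 of them were isolated, but only 790 isolated sites had enough reads for a mean, so the 344 made up 43.5% of the isolated sites that could be classified. The sites were selected on the 2 mg FA libraries themselves, so their level there is a description and was not tested.

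The DNA came from colons of female Swiss Webster mice, all given the carcinogen azoxymethane (AOM) and then cycles of dextran sulfate sodium (DSS), which causes colitis. From 11 weeks of age the mice received chow with 0, 2 or 8 mg FA/kg for 16 weeks and were killed at 27 weeks. Cells were taken by laser microdissection from fixed, paraffin-embedded colon. Groups are named by dose and tissue. The first cohort consisted of non-dysplastic epithelium, called 0ND (5 mice), 2ND (7 mice) and 8ND (6 mice) after the FA dose. The second cohort added polyps, that is, polypoid dysplasia, called 0P (6 libraries) and 8P (7 libraries from 6 mice, since mouse 1856 gave 2 lesions), beside 6 further libraries each of 0ND and 8ND. Each polyp had epithelium of its own mouse, and 8 mice had epithelium in both cohorts, which are therefore not independent. No polyps on 2 mg FA were analyzed here, and all groups carried AOM and DSS. The labels call all 30 non-dysplastic libraries epithelial cells, whereas the study also describes microdissected epithelium plus lamina propria. The labels do not mark which libraries, if any, were of that kind, so its part in the comparisons was not tested. The tissue labels were not checked against marker genes, since only methylation was measured.

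Methylation of the cytosine in CpG is copied to the new strand after each cell division by a maintenance methyltransferase. Most CpGs that lie far from other CpGs are methylated in normal tissue, while CpG islands at promoters are mostly unmethylated. Loss of methylation at scattered CpGs is a long-known feature of tumors and of tissues with many cell divisions. Folate carries the methyl groups from which the methyl donor S-adenosylmethionine is remade. The DREAM assay reads methylation at CCCGGG: SmaI cuts the sites that are unmethylated, XmaI then cuts the remaining, methylated ones, and the read end shows which enzyme cut. A methylation level here is the percentage of reads at a site that were methylated, after the authors' adjustment with spiked DNA standards. In a microdissected sample, a level between 0 and 100% may be a mixture of cells, and a change in the mixture cannot be told apart from a change within cells.

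Isolated sites were rarely read. Of the isolated sites 0.749% had a 2ND level, against 36.5% of the sites with a listed site within 1000 bp (the non-isolated sites). On chromosomes 1 to 19 the list holds 164896 sites, and the later mouse genome build GRCm38 holds 165076 CCCGGG sequences. The 2 totals are close, but single sites were not matched between builds. The sites are named for build mm9, whose sequence was not checked, and only 2.74% of the positions fell on CCCGGG in GRCm38. Positions below are mm9 positions as deposited, and neither genes nor surrounding sequence were assigned to them. Each library held between 1488920 and 16923453 reads on listed sites, but the median library of a group had only 2 reads per isolated highly methylated site in second-cohort 8ND, 3.5 in second-cohort 0ND, 7 in first-cohort 0ND, 7.5 in first-cohort 8ND, 26.5 in 0P, 34 in 2ND and 37 in 8P. Between 170 and 321 of the 344 sites reached 20 reads in each polyp, whereas 30 to 94 did in second-cohort epithelium outside the 8ND library of mouse 1856, which reached 250. The first-cohort libraries ranged from 18 (8ND, library LC1844) to 336 sites. Few sites could therefore be compared between epithelium groups, and many between polyps.

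The 344 sites lay 1004 to 77058 bp from their nearest listed site, with a median of 5521 bp against 5989 bp over all isolated sites. Every chromosome from 1 to 19 held some, from 9 on chromosome 16 to 26 on chromosomes 2 and 7. As a share of the isolated sites with a level, they made up 29.5% on chromosome 4 and 55.0% on chromosome 8, the lowest and highest of the 19. Among non-isolated sites with a level, 11.6% were highly methylated (2523 sites).

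In 2ND the site means ran from 80.1% to 100%, with a median of 95.7%. Of the 344 sites, 75 lay between 80% and 90%, 75 between 90% and 95%, and 194 above 95%, 36 of them at 100% in every covered library. The SD between 2ND libraries had a median of 4.15 percentage points over the sites. Just inside the limit were chr10:108095667 (80.1%), chr19:58385088 (80.1%) and chr1:169023604 (80.3%), and just outside it chr5:118086839 (79.7%), chr9:100120826 (79.4%) and chr7:103982150 (79.4%). These neighbors of the limit were variable, since chr10:108095667 ranged from 65.9% to 100% over 4 libraries of 2ND and chr5:118086839 from 54.2% to 92.3%. Coverage of the 344 sites in 2ND rested mainly on libraries LC1824, LC1829, LC1832 and LC1835, with 318 to 336 sites each, and only 23 sites were covered in all 7 mice. When sites were selected on 6 of the 2ND libraries and read in the library left out, their mean level in that library was 91.3% to 95.03%, and its difference from the other libraries ran from -2.04 to 1.48 points.

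Each library was then compared with the 2ND means of the sites it covered, as a description with no test. The mean difference from the 2ND level was -0.669 to 2.79 points in first-cohort 0ND (5 libraries, with 2.24 as the middle value) and -7.15 to 1.80 in first-cohort 8ND (median -1.20, 6 libraries). In the second cohort the 0ND libraries lay at -3.75 to 2.49 points, with a median of -0.379, and the 8ND libraries at -10.7 to 0.796 points, with a median of -4.02. The mean of all 13 polyps lay below the 2ND level, by -7.69 to -4.08 points in 0P (median -5.38) and by -13.2 to -4.58 points in 8P (median -8.07). The authors' adjustment factor was 1.24 to 3.81 in 2ND, 0.992 to 1.21 in 0P and 1.16 to 1.52 in 8P. On raw reads summed over the 344 sites, the median library stood at 86.3% in 2ND, 87.8% in 0P and 80.4% in 8P. After adjustment these sums had medians of 93.0%, 88.2% and 83.5%. The order of 0P and 2ND thus depended on the adjustment. The median difference over sites was 0 to 2.07 points in the 0P polyps and 0 to 1.88 in second-cohort 8ND. In 0P a minority of covered sites lay below the 2ND level, from 32 of 174 (mouse 1805) to 115 of 276 (mouse 1820). In 8P the median difference was -7.85 to 0 points. The lowest epithelium libraries, 8ND of mouse 1848 (-10.7 points, 43 sites) and 8ND of mouse 1858 in the first cohort (-7.15 points, 81 sites), overlapped with the polyps. At non-isolated highly methylated sites the same difference was -9.56 to -0.891 points in 0P and -8.35 to -3.50 in 8P, so the fall in polyps was also seen there. All 2ND libraries are of the first cohort and all polyps of the second. Lesion and cohort therefore cannot be told apart in the differences of polyps from 2ND. The libraries covered different sites, and how much of these differences the choice of covered sites accounts for was not tested beyond the common sets given next.

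**Figure D1:**
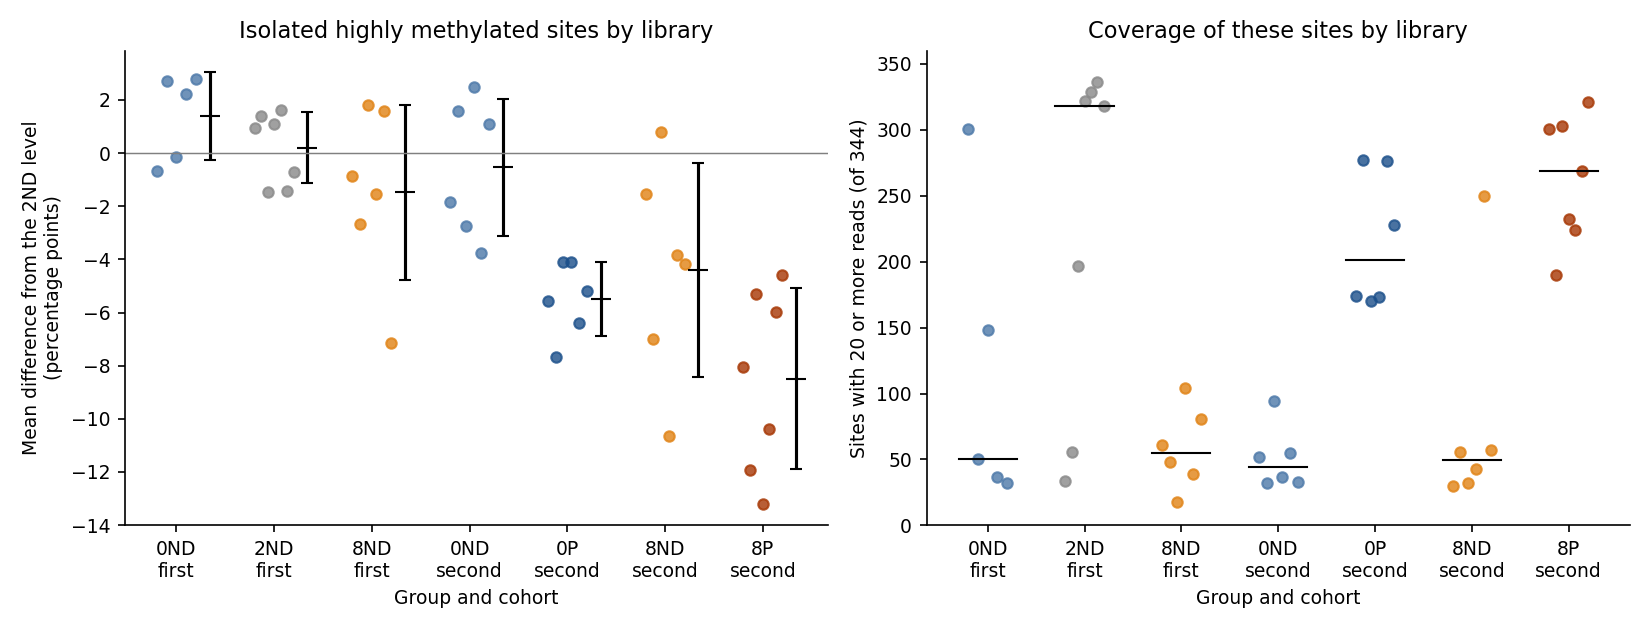
Left, mean difference of each library from the 2ND level over the isolated highly methylated sites it covers, in percentage points, with the group mean and SD in black; right, number of these sites with 20 or more reads, with the group median as a line. The 13 polyps lie between -13.2 and -4.08 points, and they cover 170 to 321 sites where most epithelium libraries outside 2ND cover under 100. The 2ND level is of the first cohort and the polyps are of the second.

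Over the 35 sites covered in all 13 polyps, whose 2ND mean was 92.0%, the library means were 85.4% to 89.3% in 0P (87.0% ± 1.59, SD, n = 6) and 79.05% to 88.6% in 8P (84.0% ± 3.46, SD, n = 7). The 2 polyp groups overlapped on this common set, and every polyp lay below the 2ND mean of the set, which comes from the first cohort. Over the 9 sites covered in all 18 libraries of the first cohort, the means were 90.1% ± 2.37 (SD, n = 5) in 0ND, 87.4% ± 2.19 (SD, n = 7) in 2ND and 87.0% ± 3.24 (SD, n = 6) in 8ND, with overlap between all 3 groups. Over the 6 sites covered in all 25 libraries of the second cohort, the means were 88.8% ± 2.66 in 0ND, 74.96% ± 7.69 in 0P, 86.8% ± 5.11 in 8ND (SD, n = 6 each) and 78.5% ± 7.38 in 8P (SD, n = 7). On this small set all 6 0P libraries (63.6% to 81.6%) lay below all 6 0ND libraries (85.7% to 92.0%), while 8P (67.3% to 88.8%) overlapped with 8ND (80.4% to 96.0%).

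The effect of diet on non-dysplastic epithelium was examined first. Sites with 20 or more reads in at least 4 libraries of each group were compared with a two-sided equal-variance test per site over all listed sites, and were called when the unadjusted p was under 0.05 and the group means differed by over 5 points. In the first cohort 31 isolated highly methylated sites could be compared between 8ND and 0ND. Methylation in 8ND was below that in 0ND at 26 of the 31, with a median difference of -3.53 points and a mean of -3.41 (89.8% against 93.3%). Over all 17874 sites compared the median difference was 0. Those sites had lower levels, with means of 17.8% in 8ND and 18.7% in 0ND. They had less room to fall and more room to rise than the 31. The same held in every comparison below, where all sites tested had group means of 16.0% to 20.9%. Shares called among all sites are therefore not shares at sites of a like level. Of the 31 sites 2 were called lower (6.45%), against 4.2% of all sites, and none was called higher, against 0.643% of all sites. Without the authors' adjustment the mean difference was -6.11 points and 6 sites were called lower. With 1 library left out, the count was 1 (8ND of mice 1841 and 1858, 0ND of mice 1807 and 1809 and of LC1817), 4 (8ND of LC1844 and mouse 1856), 3 (8ND of mouse 1848) or unchanged (8ND of mouse 1830, 0ND of LC1810 and mouse 1820). No isolated highly methylated site passed Benjamini-Hochberg adjustment in this or any other comparison. Among the other classes, 148 of 1689 non-isolated highly methylated sites were called lower (8.76%, median difference -1.94 points), as were 17 of 57 isolated sites of intermediate methylation (20% to 80% in 2ND; 29.8%) and 1 of 48 isolated unmethylated sites (under 20% in 2ND; 2.08%).

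The 2 called sites were chr1:15650140 and chr5:126117736, named after their values were seen, because no called site combined groups without overlap with 20 reads in every library. At chr1:15650140 the level in 0ND was 96.3% ± 3.62 (SD, n = 5, 90.3% to 99.8%) and in 8ND 89.5% ± 2.81 (SD, n = 5, 85.3% to 92.5%). The difference of -6.76 points (SE 2.05) gave an exact permutation p of 0.0238 and an adjusted p of 0.560. At chr5:126117736 the level was 96.3% ± 2.39 in 0ND and 89.3% ± 3.44 in 8ND (SD, n = 4 each), and the exact permutation p was 0.0571. Groups overlapped at both sites, with only the highest 8ND libraries reaching the lowest 0ND libraries. The 2ND levels, 94.2% and 91.8%, lay between those of the other diets at both. Over the 33 sites with means in both groups, the mean difference of 2ND from 0ND was -2.21 points, and 29 of the 33 were lower in 2ND. From 2ND to 8ND the mean difference was -0.634 points over 39 sites, 22 of them lower in 8ND. These values against 2ND are descriptive, because 2ND chose the sites.

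In the second cohort 19 sites could be compared between 8ND and 0ND, and 12 were lower in 8ND. The median difference was -1.51 points and the mean -2.36 points, with levels of 88.7% against 91.0%. None was called in either direction by the equal-variance test, the exact permutation test or limma, and a quasi-binomial model called 1 lower. By the equal-variance test 0 of the 19 had an unadjusted p under 0.05, and over all 15366 sites 1.47% were called lower and 0.221% higher. The standard error of a site's difference had a median of 4.22 points here and 2.66 points in the first cohort. At chr1:15650140 the second-cohort levels were 96.65% ± 2.89 in 8ND and 98.1% ± 2.13 in 0ND (SD, n = 6 each), a difference of -1.48 points (SE 1.46, exact permutation p = 0.335). The difference between the cohorts, tested as an interaction, had an unadjusted p under 0.05 at 2 of 19 sites, against 1.86% of all 14674 sites, and passed adjustment at none. The cohorts share mice, which this test treats as separate.

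Polyps were then compared with non-dysplastic epithelium on the same diet. Each polyp covered 170 to 321 of the isolated highly methylated sites. Second-cohort epithelium covered 30 to 94, apart from the 8ND library of mouse 1856 with 250. The labels do not say whether polyps and epithelium were prepared alike. A difference in preparation cannot be told apart from tissue in these comparisons and was not tested. In 0P against 0ND, 27 sites could be compared, and 22 were lower in the polyps, with a median difference of -7.75 points and a mean of -9.08 (81.8% against 90.9%). Of the 27, 6 were called lower (22.2%), against 4.72% of all sites, and 1 was called higher (3.70%), against 0.674%. The differences at the 6 ran from -12.2 to -34.8 points. Non-isolated highly methylated sites were called lower at 200 of 1552 (12.9%, median difference -4.59 points). In 8P against 8ND, 24 sites could be compared, 17 of them lower in the polyps, with a median difference of -4.43 points and a mean of -4.11 (83.0% against 87.1%). Of these, 3 were called lower (12.5%), against 3.68% of all sites, and none higher, against 1.84%. At non-isolated highly methylated sites 291 of 1404 were called lower (20.7%, median -4.43 points). All per-site tests of 8P, here and below, count both lesions of mouse 1856 as separate libraries. With the mouse as a replicate block in limma, 8 sites were called in 0P (7 lower) and 3 in 8P (all lower), and the pairs came from the same animals.

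Of the 18 sites compared in both, 14 were lower in the polyps on both diets and 1 was higher on both. The 0P and 8P comparisons use separate libraries. The difference between the falls on the 2 diets, tested as an interaction over 15091 sites, passed adjustment at none of the 18 sites. Of the 18, 1 (5.56%) had an unadjusted p under 0.05, against 3.41% of all sites. Polyps and epithelium share mice and mouse 1856 gave 2 lesions, but this test treats all libraries as separate. In both polyp comparisons 3 sites were called lower, and these are described next.

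The first of them, chr17:48877837 (SmaI_mm9_152119), lies 3130 bp from the nearest listed site and had 33 to 389 reads per library in the second cohort. In 0ND it was methylated at 72.6% to 100% (median 89.0%, 6 libraries). In 0P it ran from 17.2% to 78.2% (median 64.0%, 6 libraries), the lowest being 11 methylated of 66 reads in mouse 1805 and 30 of 97 in mouse 1807. Every 0P polyp lay below the epithelium of its own mouse, and the groups overlapped through the epithelium of mouse 1805 alone. The difference of -33.6 points (SE 11.0) gave an exact permutation p of 0.00649 and an adjusted p of 0.464. In 8ND the site ran from 57.6% to 100% (median 90.2%, 6 libraries), and in 8P from 54.0% to 81.3% (median 72.4%, 7 libraries). The difference was -16.7 points (SE 7.37), and 5 of 7 lesions lay below their own epithelium, but the exact permutation p was 0.0519. First-cohort epithelium was at 92.7% to 96.8% in 0ND, 73.7% to 95.7% in 2ND and 72.8% to 96.5% in 8ND.

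At chr2:168470189 (SmaI_mm9_22442), 3811 bp from the nearest listed site, all 4 covered 0ND libraries of the second cohort were at 100%, with 27 to 174 reads. The 5 covered 0P polyps were at 57.4%, 57.7%, 100%, 58.6% and 52.2%. The polyps of mice 1807, 1808, 1820 and 1839 thus lay between 52.2% and 58.6%, and that of mouse 1809, read 22 times, was fully methylated. The difference was -34.8 points (SE 9.95, exact permutation p = 0.0476, adjusted p = 0.429). In 8ND the 5 covered libraries were at 80.2%, 100%, 92.2%, 89.1% and 100%, and the 7 8P lesions ran from 57.2% to 88.2% (median 69.5%). All 5 lesions with a covered epithelium of the same mouse lay below it, and the difference was -22.6 points (SE 5.86, exact permutation p = 0.00631, adjusted p = 0.266). In 2ND the site stood at 89.95% to 98.2% in all 7 mice. First-cohort 8ND included lower values, 74.1% in mouse 1841 and 77.7% in mouse 1858, where 0ND was at 92.7% to 100%.

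At chr9:41794827 (SmaI_mm9_87457), 5720 bp from the nearest listed site, all 43 libraries were covered, with 25 to 503 reads. The 30 epithelium libraries of both cohorts were at 84.9% to 100%. In 0P the site ran from 45.3% to 100% (median 78.3%, 6 libraries), with the polyp of mouse 1839 at 100% over 153 reads and that of mouse 1807 at 45.3% over 156 reads. The mean fell by 19.8 points from 0ND (SE 7.50, exact permutation p = 0.0152, adjusted p = 0.623). In 8P it ran from 77.8% to 93.9% (median 83.7%, 7 libraries), which was 9.19 points below 8ND (SE 3.33, exact permutation p = 0.0221, adjusted p = 0.476). The lesion was below its own epithelium in 5 of 6 mice on 0 mg FA and at 5 of 7 lesions on 8 mg FA.

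The other sites called lower in 0P were chr1:15650140, chr6:36778233 and chr6:135034113, named after their values were seen. At chr6:36778233 the 4 covered 0P polyps (65.2% to 88.8%) lay below all 4 covered 0ND libraries (92.0% to 100%), the single case among the 27 without overlap, against 1.31% of all sites compared. At chr6:135034113 the mean was 63.7% ± 19.6 in 0P (SD, n = 5) and 90.8% ± 7.28 in 0ND (SD, n = 6). The 1 site called higher in 0P was chr17:23893106, at 93.2% ± 4.86 in 0P (SD, n = 5) and 80.5% ± 5.22 in 0ND (SD, n = 6, exact permutation p = 0.00649), and its 2ND level was 84.9% ± 4.44 (SD, n = 7). In 8P and 8ND this site was at 84.5% ± 7.33 (SD, n = 7) and 84.7% ± 7.16 (SD, n = 6).

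**Figure D2:**
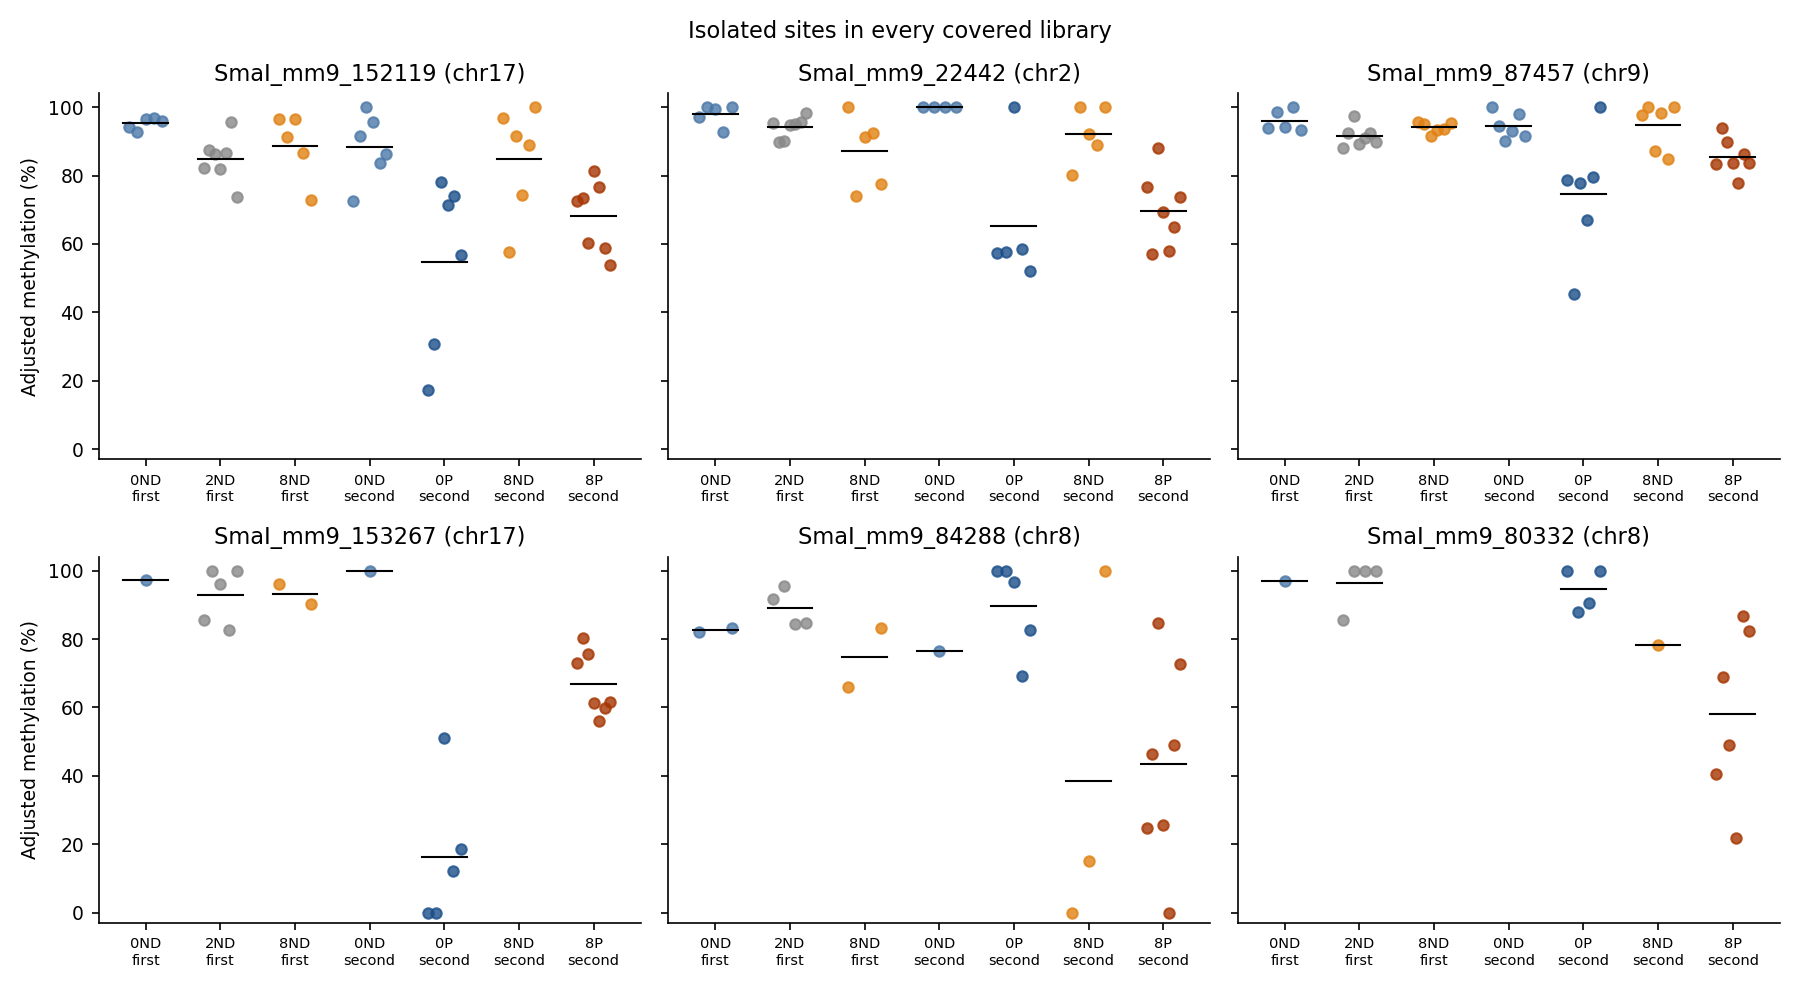
Adjusted methylation (%) of 6 isolated sites in each library with 20 or more reads, by group and cohort, with the group mean as a line. The upper row shows the sites called lower in both polyp comparisons, where most polyps lie under the epithelium; the lower row shows sites that differ between 0P and 8P, with chr17:66618373 at left at 0 to 50.9% in 0P and at 56.2% to 80.2% in 8P.

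Within mice, only a few pairs of libraries covered many sites in common. In mouse 1807 the first-cohort 0ND library and the 0P polyp shared 246 sites, with means of 94.3% and 86.7%. Of these sites 18 were under 50% in the polyp, 3 of them at 0%, and none was under 50% in the epithelium, where the 18 stood at 68.1% to 100% (median 90.2%). In the same pair 141 sites were at exactly 100% in the polyp and 60 in the epithelium, and 93 sites were lower and 107 higher in the polyp. On adjusted values, the lower mean of this polyp thus came from a minority of the sites. The epithelium is of the first cohort and the polyp of the second, so lesion and cohort cannot be told apart in this pair. Of the sites at 20% to 80% in 2ND, 10.4% were at exactly 0 or 100% in this polyp and 0.375% in this epithelium. The part of that pattern in the large losses was not tested. Without the authors' adjustment the mean difference in this pair was 0.539 points instead of -7.64, and the sign of the mean also changed on raw percent in 3 other pairs of a lesion and an epithelium library, 4 of 22 in all. Of the 13 comparisons of a lesion with second-cohort epithelium of its own mouse, over 25 to 211 sites each, 10 had a mean below the epithelium, and those of mice 1805 (0P, 0.376 points, 33 sites), 1830 (8P, 2.20 points, 39 sites) and 1848 (8P, 2.37 points, 36 sites) had a mean above it. The largest mean fall, -14.9 points over 29 sites, was that of the 0P polyp of mouse 1807.

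Mouse 1856 allowed 2 lesions to be compared with each other and with epithelium. The labels and the deposited data name these lesions the other way round, so which lesion is the first is uncertain. Over 165 sites covered in all 3 libraries the means were 83.8% and 88.5% in the lesions and 89.5% in the epithelium. In the first lesion 54 sites were under 80%, in the second 31, and 23 were under 80% in both, which is 42.6% of the first list and 74.2% of the second. The epithelium had 35 sites under 80%, and 9 sites were under 80% in all 3. Under 50% were 13 sites in the first lesion, 4 in the second and 5 in the epithelium, with 2 sites shared by all 3. Both lesions and the epithelium come from 1 mouse, so these overlaps describe a single animal.

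Across polyps, 173 of the 344 sites were covered in 10 or more of the 13. Their mean over polyps ran from 45.8% to 100%, with a median of 90.2%. No site was under 80% in every covered polyp. At least 1 polyp was under 80% at 136 sites and under 50% at 51 sites. Of the latter, 28 were under 50% in exactly 1 polyp, 12 in 2, 6 in 3, 4 in 4 and 1 in 5. For the 28 sites low in a single polyp, the mean over the other covered polyps was 71.5% to 99.3% (median 87.8%). Large losses at a given site were therefore mostly seen in 1 polyp or a few of the 13, in these libraries and at this depth. The same count per site is not given for epithelium. In second-cohort epithelium libraries, 0 to 7.27% (0ND) and 0 to 11.6% (8ND) of covered sites were under 50%, which overlapped with the polyps. The falls from 2ND given next set second-cohort polyps against first-cohort epithelium, so lesion and cohort cannot be told apart in them. The mean fall from 2ND was -10.3 points at the 39 sites at 80% to 90% in 2ND, -7.52 at the 42 sites at 90% to 95% and -5.13 at the 92 sites above 95%. By distance it was -5.47 points at the 26 sites 1 to 2 kb from the nearest listed site, -7.03 at 63 sites 2 to 5 kb away, -6.21 at 42 sites 5 to 10 kb away and -8.20 at the 42 sites farther than 10 kb. Over the 173 sites the signed difference, polyps minus 2ND, had a rank correlation of -0.066 with distance and 0.273 with the 2ND mean. The positive value means a smaller fall at higher 2ND means. The 2ND mean is part of that difference and also chose the sites. Its correlation and the grouping by 2ND level are therefore partly built in. Both correlations are a description over sites that share all 13 libraries. By chromosome the mean difference ran from -3.09 points (chromosome 7, 13 sites) to -14.8 (chromosome 8, 9 sites, and chromosome 19, 5 sites), and the mean was negative on all 19 chromosomes.

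**Figure D3:**
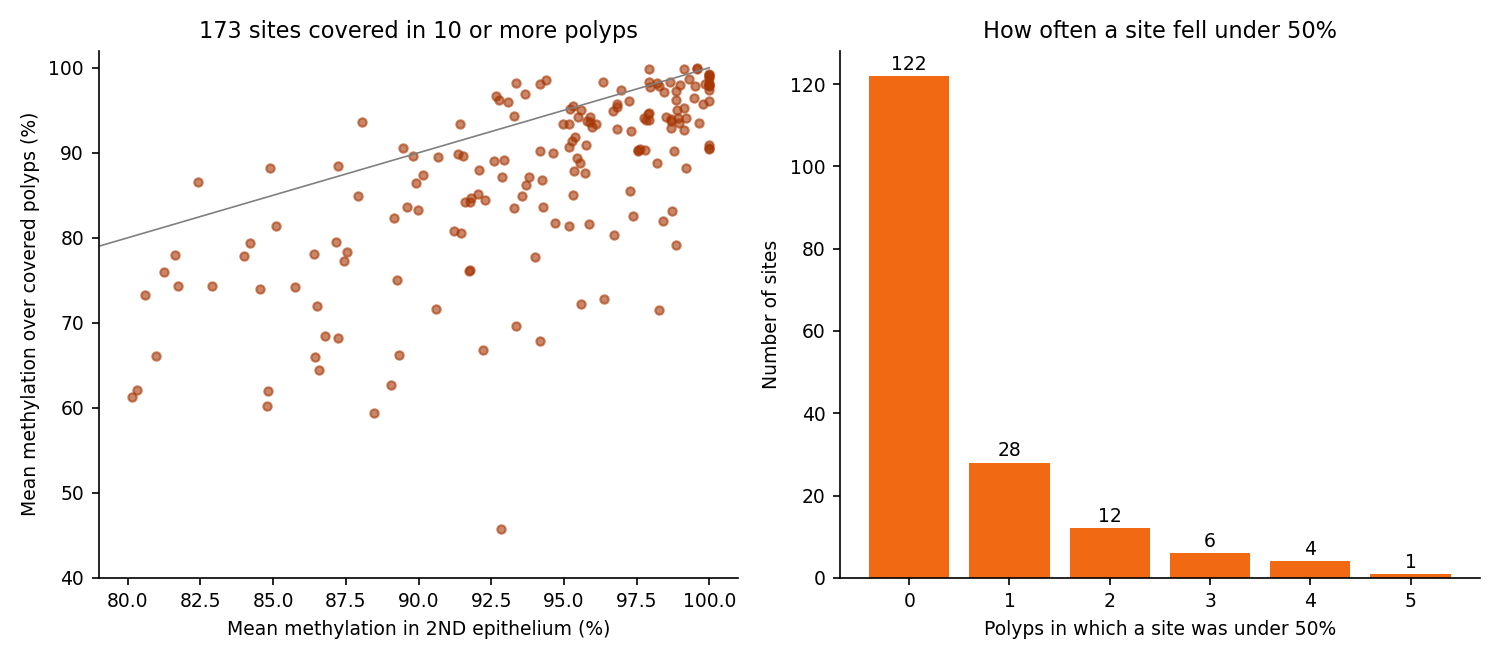
Left, mean methylation (%) over the covered polyps against mean methylation in 2ND for the 173 sites with 20 or more reads in at least 10 polyps, with the line of equal values; right, the number of these sites by how many polyps had them under 50%. Most points lie under the line, and 122 sites were never under 50%. The 2ND means are of the first cohort and the polyps are of the second.

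The lowest of the 173 sites in polyps was chr17:66618373 (45.8% over 12 polyps, 92.8% in 2ND), followed by chr19:60173874 (59.4% over 10 polyps, 88.5% in 2ND), chr9:51502319 (60.2% over 11 polyps, 84.8% in 2ND) and chr19:58385088 (61.3% over 12 polyps, 80.1% in 2ND). At the other end, 10 sites were at 90% or more in every covered polyp. Among these, chr7:19487094 was at 100% in all 10 covered polyps, and chr2:29905342 (13 polyps, lowest 98.1%), chr13:112705703 (13 polyps, lowest 98.3%) and chr10:98960171 (12 polyps, lowest 97.9%) stayed within a few points of 100%. At chr13:112705703 the lowest of the 25 covered libraries, an epithelium library, was at 68.4%. These sites were picked after their values were seen. All 10 had 2ND means of 97.9% to 100%.

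The diets were compared within polyps at 191 sites, the largest number of any comparison. Methylation was lower in 8P than in 0P at 123 sites and higher at 61, with a median difference of -1.997 points and a mean of -2.38 (87.0% against 89.4%). Of the 191, 20 were called lower in 8P (10.5%), against 1.35% of all 22960 sites, and 1 was called higher (0.524%), against 1.82%. Over all sites more were called higher in 8P (419) than lower (310). All sites had means of 20.9% in 8P and 20.8% in 0P. They had less room to fall and more room to rise than the 191 sites, so these shares do not compare sites of a like level. Among non-isolated highly methylated sites 92 of 1910 were called lower (4.82%) and 22 higher (1.15%), with a median difference of -0.838 points. No adjusted p over all sites was under 0.05 at these 191 sites, and the lowest was 0.493. The differences at the 20 sites ran from -5.06 to -46.4 points with a median of -12.7. The groups did not overlap at 4 of the 191 sites, 3 of them called lower and 1 higher, against 0.47% of all sites.

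Many of these sites stood at exactly 100% in 0P. At 10 of the 20 sites every covered 0P library was at 100%. Of the 191 sites 52 were at 100% in every covered 0P library, against 9 in every covered 8P library. Leaving out 1 library of 0P reduced the 21 calls to 9 (mouse 1820), 12 (mice 1805, 1807 and 1839), 14 (mouse 1808) or 17 (mouse 1809). With a minimum of 50 reads 37 sites could be compared, with a mean difference of -0.0575 points and 2 calls, 1 in each direction. When the 0P libraries of mice 1805, 1807 and 1839, with over 10% of intermediate sites at exactly 0 or 100%, were left out (7 libraries against 3), 4 sites were called lower and 5 higher among 97.

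**Figure D4:**
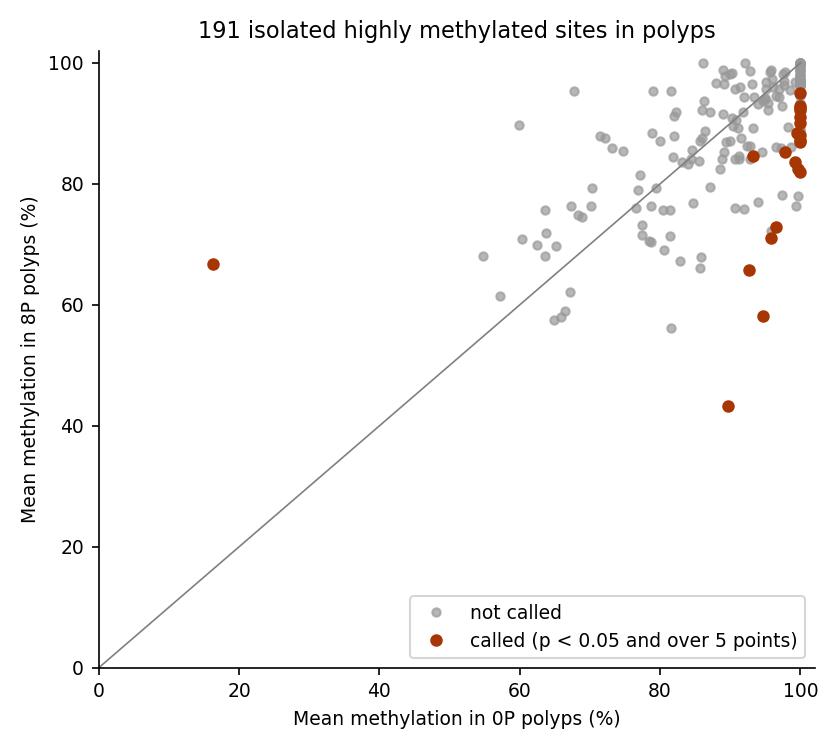
Mean methylation (%) in 8P polyps against 0P polyps for the 191 isolated highly methylated sites covered in at least 4 libraries of each group, with the line of equal values. Of the 21 called sites, 20 lie under the line, 10 of them at 100% in 0P, and 1 lies far above it at 16.4% in 0P and 66.8% in 8P.

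The share of sites at exactly 100% differed between the groups. It was 51.1% to 80.5% in 0P (median 61.5%) and 12.1% to 44.9% in 8P (median 30.8%), without overlap, and 16.2% to 47.3%, 8.82% to 49.2% and 13.6% to 33.3% in 0ND, 2ND and 8ND of the first cohort. In second-cohort epithelium 0ND held 24.2% to 64.9% and 8ND 20.0% to 69.6%. At sites with 50 or more reads the share was 25.0% to 73.6% in 0P (median 48.7%) and 6.15% to 40.9% in 8P (median 27.1%), so deeper sites showed the same order of medians with overlap. At 90% to under 100% lay 0.575% to 10.5% of the sites in 0P (median 6.07%), 8.51% to 45.9% of those in second-cohort 0ND, with a median of 25.1%, and 33.1% to 62.2% in first-cohort 0ND. At 50% to under 80% lay 6.90% to 22.4% in 0P and 2.00% to 6.76% in first-cohort 0ND. The share of sites under 50% was 1.76% to 9.77% in 0P (median 6.47%) and 0.935% to 8.93% in 8P (median 4.65%). Second-cohort epithelium overlapped with these shares, with 0ND at 0 to 7.27%, around a median of 3.49%, and 8ND at 0 to 11.6%, around a median of 4.03%. In 2ND, which chose the sites, it was 0 to 0.508%. At sites of intermediate methylation in 2ND, isolated or not, values of exactly 0 or 100% made up 0.0799% to 1.90% of covered sites in 2ND, 2.69% to 45.5% in 0P, 0.634% to 5.84% in 8P, 0.277% to 10.3% in second-cohort 0ND and 0.695% to 33.3% in second-cohort 8ND. The highest of these libraries were the 0P polyp of mouse 1805 and the 8ND library of mouse 1830. The part that this all-or-none pattern has in the differences above was not tested beyond the counts without those libraries.

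**Figure D5:**
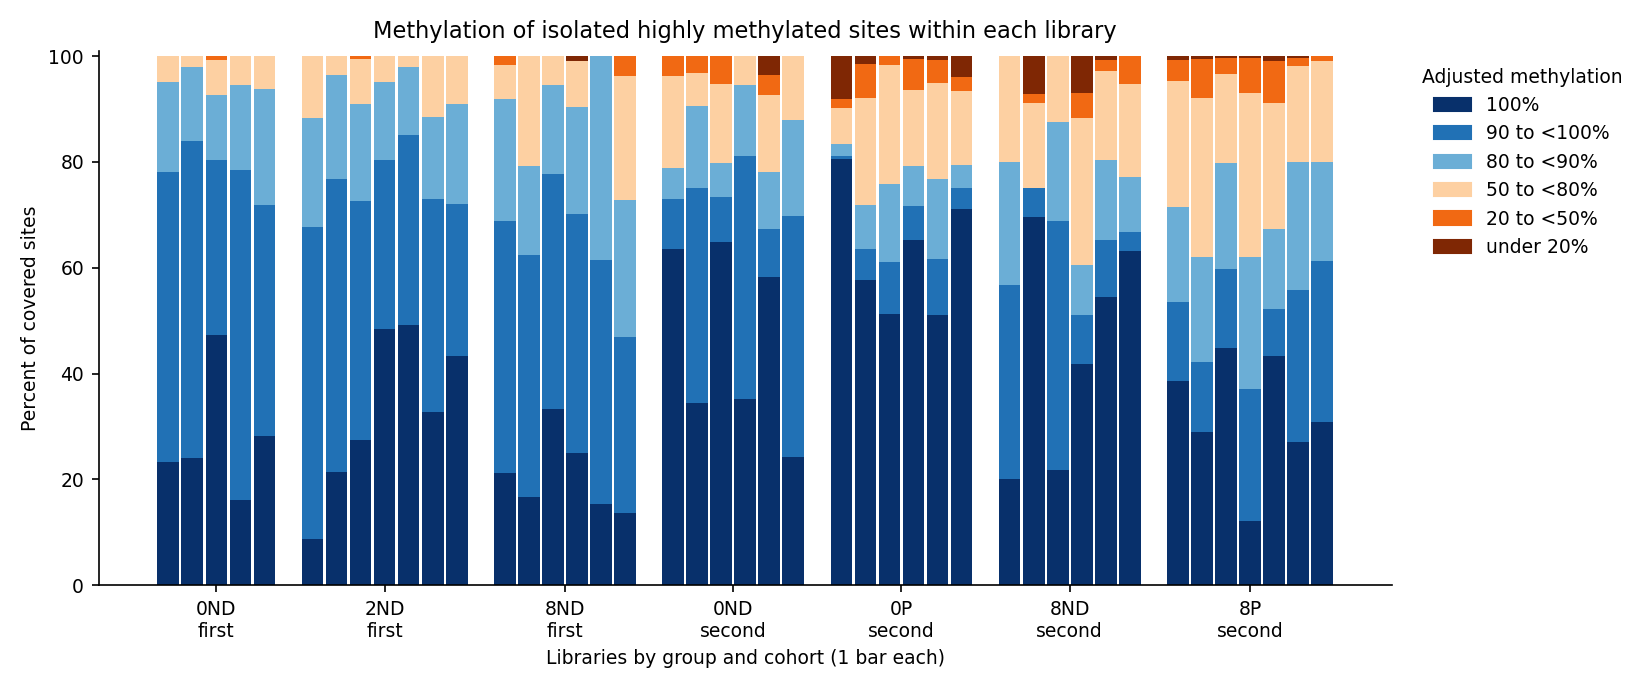
Share (percent) of the covered isolated highly methylated sites in 6 ranges of adjusted methylation, 1 bar per library, by group and cohort. The 0P bars are 51.1% to 80.5% at exactly 100% with few sites between 90% and 100%, while the 8P bars hold 12.1% to 44.9% at 100% and more sites between 50% and 90%.

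The single site called higher in 8P, chr17:66618373 (SmaI_mm9_153267), was also the lowest in polyps, and it is shown with 2 sites of the opposite direction that were picked after their values were seen. It lies 2118 bp from the nearest listed site. In 2ND it was methylated at 85.4%, 100%, 96.1%, 82.6% and 100% in the 5 covered mice. The 5 covered 0P polyps were at 0% (0 of 44 reads, mouse 1805), 0% (0 of 39 reads, mouse 1807), 50.9% (23 of 46, mouse 1808), 12.2% (8 of 66, mouse 1809) and 18.7% (7 of 44, mouse 1820). The 7 8P lesions ran from 56.2% to 80.2% (median 61.6%) with 27 to 146 reads, all above the highest 0P polyp. The difference was 50.4 points (SE 8.82, exact permutation p = 0.00126, adjusted p = 0.493), with both lesions of mouse 1856 counted separately. Epithelium was covered in 4 libraries outside 2ND, all at 90.4% to 100%, and only 1 of these, 0ND of mouse 1808, was of the second cohort. At this site every covered polyp lay below every covered epithelium library, mostly of the other cohort, and the 0P polyps lay lowest. The polyps at 0%, those of mice 1805 and 1807, had 45.5% and 10.4% of their intermediate sites at exactly 0 or 100%.

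At chr8:123235423 (SmaI_mm9_84288), 18365 bp from the nearest listed site, the 5 covered 0P polyps were at 100%, 100%, 96.7%, 69.2% and 82.6%, and the 7 8P lesions ran from 0% to 84.6% (median 46.5%) with 21 to 57 reads. The difference was -46.4 points (SE 14.2, exact permutation p = 0.0126, adjusted p = 0.838). The 3 covered 8ND libraries of the second cohort were at 0%, 15.2% and 100%, so low values were present in that epithelium too. In 2ND the site was at 84.4% to 95.5% over 4 mice. At chr8:73412763 (SmaI_mm9_80332), 3773 bp from the nearest listed site, the 4 covered 0P polyps (100%, 87.8%, 90.7% and 100%) lay above all 6 covered 8P lesions (21.8% to 86.8%, median 58.9%). The difference was -36.4 points (SE 13.2, exact permutation p = 0.0286, adjusted p = 0.838). The 2 lesions of mouse 1856 stood far apart at this site, at 21.8% over 96 reads and 86.8% over 32 reads.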

How the data were processed

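The 43 DREAM libraries came from microdissected mouse colon, 18 in a first and 25 in a second cohort. The submitters' notes name Bowtie2, SAMtools and build mm9; the study's methods name a human genome for mapping, while the listed sites are mm9 sites. The authors deposited, per library, counts of methylated, unmethylated and total reads at 173449 sites and 18 spiked standards, with no normalization. The authors also deposited methylation as a percent, raw and adjusted with the standards by 1 factor per library.

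Sites with 20 or more reads in at least 4 libraries of each group were compared on adjusted percent by a two-sided equal-variance test per site over all listed sites, with Benjamini-Hochberg adjustment over all sites tested and an exact permutation p for members. Calls needed an unadjusted p under 0.05 and over 5 points. Sites were named when called with groups that did not overlap and with 20 reads in every library, when called lower in both polyp comparisons, or when next to the limit of 80%; others are said to be picked after their values were seen. The members and lists were chosen with earlier results of these data known. Comparisons share libraries (0ND, 0P, 8ND and 8P of the second cohort each enter 2 comparisons or more). p-values measure the spread between these libraries, and those of 8P count both lesions of mouse 1856 as separate libraries.

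Polyps and epithelium of the second cohort come from the same mice, which pairs them. Deviations of same-mouse libraries from their group means correlated at 0.0297 on average over 6 pairs on 0 mg FA (-0.0313 to 0.0804, 11109 sites). On 8 mg FA the average was 0.0747 over 7 pairs (-0.0147 to 0.339, 9969 sites). Pairs from different mice averaged -0.0053 and -0.0153. These values are over sites of every level, not over the isolated highly methylated sites alone. Alternatives were minimums of 10 and 50 reads, full coverage, raw percent, centring, isolation of 2000 bp, a limit of 90%, limma, the exact permutation test, a quasi-binomial model and leaving out libraries. For the calls in 8P, the mean of both lesions of mouse 1856 was a further alternative. The scripts were tested on simulated data. Python 3.11.15, numpy 2.4.6, scipy 1.17.1, pandas 2.3.3, matplotlib 3.10.9, R 4.3.3 and limma 3.58.1 were used.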

Additional observations from a re-analysis of the deposited data

Results flagged for a closer look

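An outlying library was looked for in 64 groups of values and found in 7. The rule flags about 1 in 20 groups of normally distributed values. Where all other libraries are tied it flags any differing value, as for LC1810, LC1822 and LC1824 below. The count of 7 therefore cannot be set against that rate. In first-cohort 0ND, library LC1810 had 1 of its 148 covered isolated highly methylated sites under 50% (0.676%), where the other 4 libraries had 0. In 2ND, library LC1822 had 1 of 197 under 50% (0.508%), where the others had 0. In second-cohort 0ND, mouse 1808 covered 94 sites and the others 32 to 55. In second-cohort 8ND, mouse 1856 covered 250 sites and the others 30 to 57. Among 0P polyps, that of mouse 1805 had 45.5% of sites of intermediate 2ND methylation at exactly 0 or 100%, against 2.69% to 14.4% in the others. At chr2:168470189 the 0P polyp of mouse 1809 stood at 100% and the others at 52.2% to 58.6%. At chr8:73412763 2ND library LC1824 stood at 85.5% and the other 3 covered libraries at 100%.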

How the results depend on the processing

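The mean differences of the 5 group comparisons kept their sign under every setting tried, whereas on raw percent 4 of 22 differences between a lesion and epithelium of its own mouse changed sign. Their size varied over the settings other than leaving out 1 library. For 8ND against 0ND it ran from -6.11 to -2.24 points in the first cohort and -5.43 to -0.676 in the second. It was -10.1 to -6.74 for 0P against 0ND, -6.61 to -1.85 for 8P against 8ND and -4.24 to -0.0575 for 8P against 0P. For 8ND against 0ND in the first cohort the 2 calls became 1 with 10 reads, 0 with full coverage, 6 on raw percent (mean -6.11 points) and 0 after Benjamini-Hochberg adjustment, and 1 to 4 when 1 library was left out. In the second cohort the count of 0 became 1 with the quasi-binomial model, 1 without libraries with 8% or more of reads on the 100 most-read sites and 1 without those with 10% or more of intermediate sites at 0 or 100%, the latter restriction chosen after seeing the data, and it was 0 whichever library was left out. For 0P against 0ND the 7 calls became 3 with full coverage, 4 above 90% in 2ND, 0 after adjustment and 3 (2 lower) under the 8% restriction, and 5 to 7 when 1 library was left out. For 8P against 8ND the 3 calls became 6 with 10 reads, 1 with 50 reads, 0 after adjustment, 1 under the 10% restriction and 6 with at least 3 covered libraries (also chosen after seeing the data), and 2 to 4 when 1 library was left out. For 8P against 0P the 21 calls became 2 with 50 reads, 3 with full coverage, 0 after adjustment and 9 under the 10% restriction, and 9 to 20 when 1 library was left out. When sites were selected without 1 of the 2ND libraries, their mean in that left-out library was 91.3% to 95.03%. With the mouse as a replicate block in limma, 8 sites were called in 0P and 3 in 8P. Fewer sites were compared with 50 reads or full coverage; otherwise the cause was not tested. Depth limited the epithelium comparisons to 19 to 31 sites. The 8% restriction left out no 8P or 0P library.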
